A study of Homo sapiens with 16 samples.

Results

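Genes of double-strand break repair and damage signalling were followed in the established human T cell line Jurkat E6-1, which the labels class as lymphoma and give as WT in genotype. The set was a list of gene symbols, mapped from Ensembl gene IDs, and all 33 genes were found among the 60662 gene IDs of the count tables. They comprised 4 break sensors, 11 homologous recombination genes, 7 end joining genes, 3 Fanconi genes and 8 signalling genes. The peroxide group held 8 RNA-seq libraries from cells suspended in phosphate-buffered saline (PBS) with 10 µM hydrogen peroxide and harvested 4 h later. The control group held 8 libraries from untreated cells at 0 h. Controls kept in saline for 4 h were not analysed here, so peroxide, saline and time differ together between the groups. The names of the deposited tables place 4 libraries of each group in each of 2 batches, and the labels do not say how the batches differ. The labels call the libraries biological replicates without saying that they came from separate cultures, so p-values measure the spread between these libraries. In bulk RNA, fewer cells of a type and less RNA per cell cannot be told apart.

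A broken DNA end is bound by the complex of MRE11, RAD50 and NBN or by the Ku dimer of XRCC5 and XRCC6. In end joining, Ku recruits the kinase PRKDC and the ends are sealed by the ligase LIG4, a route that lymphocyte precursors also use to rearrange their antigen receptor genes. In homologous recombination, BRCA1, PALB2 and BRCA2 act on resected ends, which are repaired by copying an intact sister sequence, while the kinases ATM and ATR signal the damage to CHEK2 and CHEK1 and to chromatin proteins such as MDC1 and TP53BP1.

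Libraries held 5556553 to 15720881 reads in genes. All 15 T cell markers passed the filter on low counts, and their summed level was 4253 to 5371 CPM (counts scaled to library size, with TMM factors) in peroxide libraries and 4566 to 5484 CPM in controls. Of the 15, 6 were lower (40%, against 24.3% of all genes tested) and 0 higher (against 24.1%). LAT had a mean of 3.98 CPM in peroxide libraries and 11.2 CPM in controls (log2 fold change -1.50), and TCF7 had a log2 fold change of -0.34. Of 8 epithelial and fibroblast markers only 1 passed the filter, and EPCAM, CDH1 and COL1A2 had 0 reads in every library. Of 8 B cell markers 3 passed the filter and none was called. The summed level of these 8 was 55.2 to 99.8 CPM in peroxide libraries and 53.8 to 99.2 CPM in controls. Of 9 myeloid markers, CD14 and ITGAM passed the filter and the others were not tested. CD14 had a mean of 3.15 CPM in peroxide libraries and 0.27 CPM in controls, and ITGAM 4.32 and 0.16 CPM. Both passed only through the peroxide libraries, so the filter fixed the direction of their difference and it is no separate result. The summed level of the list was 4.89 to 16.5 CPM in peroxide libraries and 0.50 to 1.49 CPM in controls, and S100A8 had 0 reads in every library. The part of these markers in the results below was not tested.

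Repair and signalling transcripts were called lower more often than higher after peroxide, by less than 2-fold in each case. Of the 32 genes tested, 13 fell, 2 rose and 17 did not pass the test (edgeR's quasi-likelihood test, Benjamini-Hochberg adjusted p under 0.05 over all 14092 genes tested). The genes that fell were BRCA1, BRCA2, BARD1, PALB2, BLM, RAD52, RAD54L, PRKDC, LIG4, FANCI, ATR, RNF8 and TP53BP1, and those that rose were MDC1 and CHEK1. The 15 calls were 46.9% of the set, against 48.3% of all genes tested, so the share called was near the background. The direction was less balanced than among all genes: 40.6% of the set was called lower, against 24.3% of all genes, and 6.25% was called higher, against 24.1%. The median log2 fold change of the set was -0.15, against -0.01 over all genes tested. In 2 of the 32 genes, RAD54L and PRKDC, all 8 peroxide libraries lay below all 8 controls, a pattern seen in 4.49% of all genes. In 0 of the 32 did all peroxide libraries lie above all controls, against 6.76% of all genes. When libraries were scaled by total counts instead of TMM, the median of the set was -0.21 and that of all genes -0.08, and the calls became 1 higher and 19 lower in the set and 2822 higher and 4375 lower among all genes, against 3391 higher and 3419 lower with TMM.

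**Figure D1:**
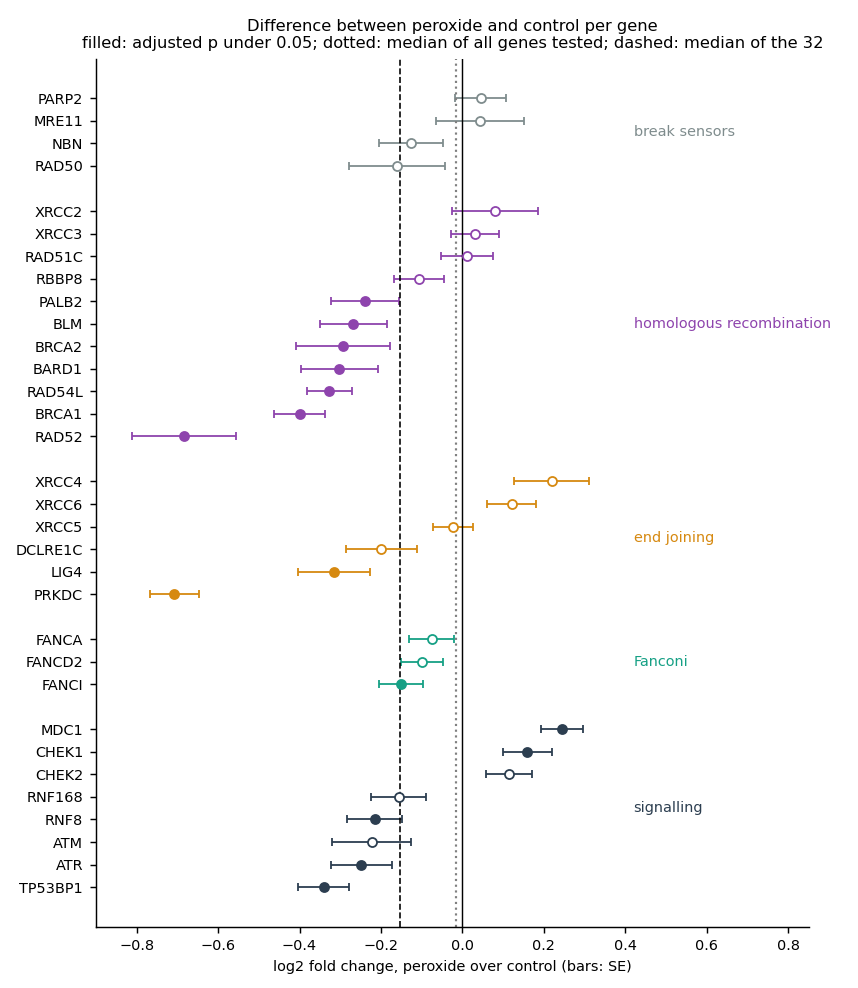
Log2 fold change (peroxide over control, x axis) with its SE for each of the 32 genes tested, grouped by class. Filled points passed an adjusted p under 0.05, the dotted line is the median of all genes tested (-0.01) and the dashed line that of the 32 genes (-0.15). Of the 11 homologous recombination genes, 7 were called lower (63.6%, against 24.3% of all genes tested). The signalling genes were called in both directions, as were all genes tested.

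Per length of exon, levels differed widely within and between the classes. The Ku genes XRCC6 and XRCC5 were the most abundant, with means of 199.7 and 142 CPM per kb in peroxide libraries and 185 and 144 CPM per kb in controls. PRKDC followed with 47.4 CPM per kb in peroxide libraries and 77.4 CPM per kb in controls. FANCI came next in peroxide libraries with 41 CPM per kb, against 45.4 in controls, and RBBP8, whose product starts the resection of break ends, had 30.1 CPM per kb in peroxide libraries and 32.5 in controls. Most other genes lay between 4.94 CPM per kb, the mean of RAD52 in peroxide libraries, and 32.9 CPM per kb, the mean of RAD54L in controls. RAD50 was listed far lower, at 0.863 CPM per kb in peroxide libraries and 0.964 in controls, and 79.7% of its exon bases are shared with an overlapping gene model on the same strand, AC116366.3, so its level is uncertain. NHEJ1, an end joining factor that stabilises the ligase complex, had 1 to 11 reads in peroxide libraries and 2 to 9 in controls. It did not pass the filter, and 65.4% of its exon bases are shared with AC068946.1 on the same strand.

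**Figure D2:**
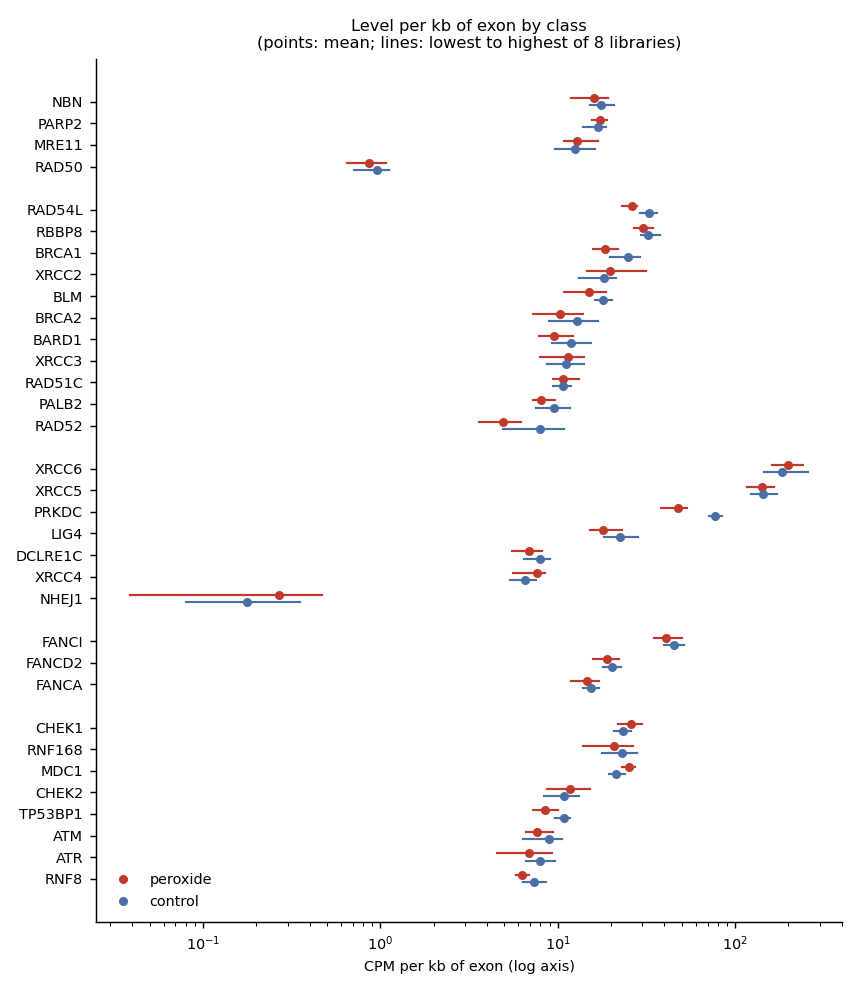
Level of all 33 genes as CPM per kb of exon (log axis), by class. Points are means and lines run from the lowest to the highest of 8 libraries, with peroxide above control; XRCC6 and XRCC5 lie highest, RAD50 and NHEJ1 lowest, and the peroxide line of PRKDC (mean 47.4) lies wholly below its control line (mean 77.4).

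No break sensor was called over both batches. Of the 4 sensors, 0 rose (against 24.1% of all genes tested) and 0 fell (against 24.3%), and their median log2 fold change was -0.04. NBN, which tethers ATM to the MRE11 complex, had a lowest, median and highest level of 73.2, 100.1 and 118 CPM in peroxide libraries and 93.3, 109 and 127 CPM in controls, with a log2 fold change of -0.13 ± 0.08 (SE; edgeR's quasi-likelihood test, adjusted p = 0.196). The groups overlapped, with 2 peroxide libraries below all controls. RAD50, an ATPase that bridges DNA ends, had 6.36, 8.68 and 10.5 CPM in peroxide libraries and 6.94, 10.2 and 10.9 CPM in controls (log2 fold change -0.16 ± 0.12, edgeR adjusted p = 0.274). PARP2, which marks breaks with poly(ADP-ribose), had 64.3, 72.1 and 78.0 CPM in peroxide libraries and 56.8, 70.6 and 76.7 CPM in controls (log2 fold change 0.04 ± 0.06, edgeR adjusted p = 0.586). For both genes the peroxide and control libraries overlapped along most of their range. MRE11, the nuclease of the complex, had 84.0, 95.4 and 129 CPM in peroxide libraries and 74.1, 94.0 and 124 CPM in controls, a pooled log2 fold change of 0.04 ± 0.11 (edgeR adjusted p = 0.772), and its difference from control ran in opposite directions in the batches, as given further on.

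Homologous recombination genes made up most of the falls. Of 11 tested, 7 fell (63.6%, against 24.3% of all genes tested), 0 rose (against 24.1%) and 4 did not pass the test. The median log2 fold change was -0.27, with -0.41 in batch 2 and -0.05 in batch 1. Of 35 other homologous recombination genes, counted further on, 25.7% fell and 14.3% rose. BRCA1, the ubiquitin ligase that with BARD1 promotes resection of break ends, had a lowest, median and highest level of 146, 170.1 and 202 CPM in peroxide libraries and 181, 232 and 268 CPM in controls. All but 1 peroxide library lay below every control. Its log2 fold change was -0.40 ± 0.06 (SE; edgeR's quasi-likelihood test, adjusted p = 1.8e-05), and it was -0.54 in batch 2 and -0.25 in batch 1. RAD54L, a DNA motor protein of the strand pairing step, had 74.4, 84.8 and 90.2 CPM in peroxide libraries and 93.6, 107 and 117 CPM in controls, with no overlap between the groups. The log2 fold change was -0.33 ± 0.06 (edgeR adjusted p = 5.3e-05). RAD52, which anneals single strands, is the least abundant of the class per kb and had 15.0, 21.4 and 26.1 CPM in peroxide libraries and 20.5, 34.9 and 45.4 CPM in controls. The log2 fold change of -0.68 ± 0.13 (edgeR adjusted p = 0.00014) was the lowest in the class, and 4 of 8 peroxide libraries lay below all controls.

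The other homologous recombination genes called lower had log2 fold changes of -0.24 (PALB2, the bridge between BRCA1 and BRCA2), -0.27 (BLM, a helicase that dissolves joint molecules), -0.29 (BRCA2, a partner of PALB2) and -0.30 (BARD1, the partner of BRCA1). RBBP8, at -0.11, and the recombination genes RAD51C, XRCC2 and XRCC3, at 0.01, 0.08 and 0.03, did not pass the test. The call of BRCA2 was lost in batch 1 alone (log2 fold change 0.01, edgeR adjusted p = 0.979) and when any 1 of control replicates 5, 6 and 8 or peroxide replicates 2, 5, 6, 7 and 8 was left out (edgeR adjusted p between 0.0560 and 0.0914). The call of PALB2 was lost in batch 1 alone (-0.05, edgeR adjusted p = 0.740) and without peroxide replicate 5, 6 or 7 (edgeR adjusted p between 0.0503 and 0.0522). BARD1 and BLM were not called in batch 1 alone either, at -0.08 and -0.13 (edgeR adjusted p = 0.673 and 0.335).

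The promoters of 2 genes that fell and 2 that rose are shown because they can be read against each other over the same window, the 250 bases before the RefSeq transcription start (GRCh38.p14). Capitals mark CCAAT or its reverse complement ATTGG, the core bound by the factor NF-Y, and TTTGAA, the cell cycle homology region (CHR) core. TP53BP1 and RAD54L fell, MDC1 and CHEK1 rose, and the 4 were chosen after their values were seen.
TP53BP1 (chr15:43510641-43510890, minus strand): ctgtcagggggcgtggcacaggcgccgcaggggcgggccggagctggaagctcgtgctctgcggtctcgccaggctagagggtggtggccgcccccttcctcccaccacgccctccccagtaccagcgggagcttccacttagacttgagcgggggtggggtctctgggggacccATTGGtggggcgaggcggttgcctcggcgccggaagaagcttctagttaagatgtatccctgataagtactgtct
RAD54L (chr1:46247438-46247687, plus strand): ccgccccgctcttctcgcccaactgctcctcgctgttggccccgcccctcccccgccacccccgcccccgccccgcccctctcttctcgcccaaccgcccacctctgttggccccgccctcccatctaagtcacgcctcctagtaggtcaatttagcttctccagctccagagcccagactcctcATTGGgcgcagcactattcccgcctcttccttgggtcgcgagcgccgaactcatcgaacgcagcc
MDC1 (chr6:30717282-30717531, minus strand): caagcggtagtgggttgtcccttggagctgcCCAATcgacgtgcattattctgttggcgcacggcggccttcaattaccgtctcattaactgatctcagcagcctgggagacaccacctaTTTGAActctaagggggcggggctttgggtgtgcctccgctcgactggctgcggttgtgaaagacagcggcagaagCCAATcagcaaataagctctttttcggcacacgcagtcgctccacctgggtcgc
CHEK1 (chr11:125625979-125626228, plus strand): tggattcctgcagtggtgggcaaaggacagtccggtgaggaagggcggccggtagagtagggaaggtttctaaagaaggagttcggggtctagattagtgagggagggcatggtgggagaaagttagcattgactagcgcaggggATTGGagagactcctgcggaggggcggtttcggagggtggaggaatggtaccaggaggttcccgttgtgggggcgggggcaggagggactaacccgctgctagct

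The NF-Y core began 75 bases upstream of the start in TP53BP1, 65 in RAD54L, 105 in CHEK1, and 219 and 54 in MDC1, and the CHR core began 130 bases upstream in MDC1. RefSeq promoters were found for 29 of the 33 genes. On either strand, CCAAT occurred in 14 of these 29 (48.3%), against 33.0% of 27305 promoters of the same length. It occurred in 5 of 11 promoters of genes that fell, in both promoters of genes that rose and in 7 of 16 promoters of genes that were not called or not tested. The CHR core occurred in 2 of 29, ATM and MDC1, against 13.6% of all promoters. The E2F cores TTTCCCGC, TTTGGCGC and TTTCGCGC occurred in 0 of 29, against 2.38% of all promoters. Cores were searched on both strands and a base could belong to more than 1 of them. These are letter matches and not measured binding.

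Among the end joining genes was the lowest log2 fold change of the set, that of PRKDC. Of 6 tested, 2 fell (33.3%, against 24.3% of all genes tested), 0 rose (against 24.1%) and 4 did not pass the test. The median log2 fold change was -0.11. PRKDC, the catalytic subunit of the DNA-dependent protein kinase, had a lowest, median and highest level of 589, 744 and 828 CPM in peroxide libraries and 1097, 1194 and 1295 CPM in controls. The highest peroxide library lay well below the lowest control. Its mean was 731 ± 71.1 CPM in peroxide libraries and 1194 ± 61.7 CPM in controls (SD, n = 8 each), or 61.3% of control by the fitted fold change. The log2 fold change was -0.71 ± 0.06 (SE; edgeR's quasi-likelihood test, adjusted p = 4.4e-09), and it was -0.69 in batch 2 and -0.72 in batch 1. LIG4, the ligase of the pathway, had 66.5, 74.4 and 101 CPM in peroxide libraries and 79.9, 97.8 and 125 CPM in controls, with 5 peroxide libraries below all controls. LIG4 thus fell by 0.31 ± 0.09 on the log2 scale (edgeR adjusted p = 0.0054), with the same size but no call in batch 1 alone (-0.32, edgeR adjusted p = 0.0710).

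The partner of LIG4, XRCC4, had 14.9, 21.4 and 22.7 CPM in peroxide libraries and 14.4, 17.3 and 20.3 CPM in controls. In 5 of 8 peroxide libraries it lay above all controls, but the log2 fold change of 0.22 ± 0.09 missed the threshold (edgeR adjusted p = 0.0554). The Ku genes XRCC5 and XRCC6 had log2 fold changes of -0.02 ± 0.05 and 0.12 ± 0.06 (edgeR adjusted p = 0.725 and 0.10). DCLRE1C, the nuclease that opens hairpin ends in receptor gene rearrangement, had -0.20 ± 0.09 (edgeR adjusted p = 0.0631). The PRKDC protein works as a holoenzyme with Ku, and the log2 fold change of -0.71 for PRKDC stands beside these values for the Ku genes. The difference between the genes was not tested.

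The 3 Fanconi genes had small negative differences. FANCI, which with FANCD2 forms the clamp that is loaded at crosslinked DNA, had a lowest, median and highest level of 270.5, 304 and 392.5 CPM in peroxide libraries and 311, 346 and 399.8 CPM in controls, and 5 peroxide libraries lay below all controls. Its log2 fold change was -0.15 ± 0.05 (SE; edgeR's quasi-likelihood test, adjusted p = 0.0272). The call was lost without peroxide replicate 3 (edgeR adjusted p = 0.0619), in batch 1 alone (-0.11, edgeR adjusted p = 0.372) and without the batch term (edgeR adjusted p = 0.203). FANCD2 had 132, 159 and 186 CPM in peroxide libraries and 152, 166 and 189.7 CPM in controls (log2 fold change -0.10 ± 0.05, edgeR adjusted p = 0.113). FANCA, a subunit of the ligase complex that marks the clamp, had 115, 143 and 166 CPM in peroxide libraries and 136, 149 and 167 CPM in controls (log2 fold change -0.08 ± 0.06, edgeR adjusted p = 0.274). In both genes the libraries of the groups overlapped, with 4 and 3 peroxide libraries below all controls.

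Signalling genes were called in both directions, as were all genes tested. Of 8 tested, 3 fell (37.5%, against 24.3% of all genes), 2 rose (25%, against 24.1%) and 3 did not pass the test. The share that rose was thus near that of all genes. The median log2 fold change was -0.19. TP53BP1, the chromatin reader that protects ends from resection, had a lowest, median and highest level of 94.7, 111 and 131 CPM in peroxide libraries and 125, 141 and 153 CPM in controls. All but 1 peroxide library lay below every control. The gene had a log2 fold change of -0.34 ± 0.06 (SE; edgeR's quasi-likelihood test, adjusted p = 0.00012), and the opposite-strand gene TUBGCP4, which shares 28.7% of its exon bases, had -0.21 (edgeR adjusted p = 0.0175). In batch 1 alone TP53BP1 had -0.23 and missed the threshold (edgeR adjusted p = 0.0535). ATR, the kinase that answers to single-stranded DNA, had 56.9, 84.1 and 116 CPM in peroxide libraries and 83.1, 96.4 and 120.1 CPM in controls. All 4 peroxide libraries of batch 2, and no other, lay below all controls. The pooled log2 fold change was -0.25 ± 0.08 (edgeR adjusted p = 0.0099), with -0.42 in batch 2 and -0.08 in batch 1, where it was not called on its own (edgeR adjusted p = 0.551). RNF8, the ubiquitin ligase that acts after MDC1, fell by 0.22 on the log2 scale (edgeR adjusted p = 0.0111), but was not called in batch 1 alone (-0.19, edgeR adjusted p = 0.174).

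MDC1, the scaffold that binds phosphorylated histone H2AX, had 187, 205 and 219 CPM in peroxide libraries and 158, 175 and 194 CPM in controls, with 6 of 8 peroxide libraries above all controls. It had a log2 fold change of 0.24 ± 0.05 (SE; edgeR's quasi-likelihood test, adjusted p = 0.00058), and it was called higher in each batch alone (0.19 in batch 2 and 0.30 in batch 1). CHEK1, the effector kinase of ATR, had 144, 169 and 197 CPM in peroxide libraries and 136, 155 and 170.0 CPM in controls, with 4 of 8 peroxide libraries above all controls. That count pools the batches. In batch 2 CHEK1 ran from 164 to 180 CPM in peroxide libraries and from 163 to 170 CPM in controls. In batch 1 it ran from 144 to 197 CPM in peroxide libraries and from 136 to 146 CPM in controls. It had a log2 fold change of 0.16 ± 0.06 (edgeR adjusted p = 0.0314), but the call was lost in batch 2 alone (0.06, edgeR adjusted p = 0.439), with total counts as scaling (0.10, edgeR adjusted p = 0.162) and without control replicate 1, 3 or 4 or peroxide replicate 1, 3 or 4 (edgeR adjusted p between 0.0515 and 0.0755). CHEK2, the effector kinase of ATM, had 0.11 ± 0.06 (edgeR adjusted p = 0.106). ATM itself had 159, 173 and 224 CPM in peroxide libraries and 153, 226 and 253 CPM in controls, and a pooled log2 fold change of -0.22 ± 0.10 (edgeR adjusted p = 0.0637). RNF168, the ubiquitin ligase that follows RNF8 on chromatin, had -0.16 ± 0.07 (edgeR adjusted p = 0.0619).

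**Figure D3:**
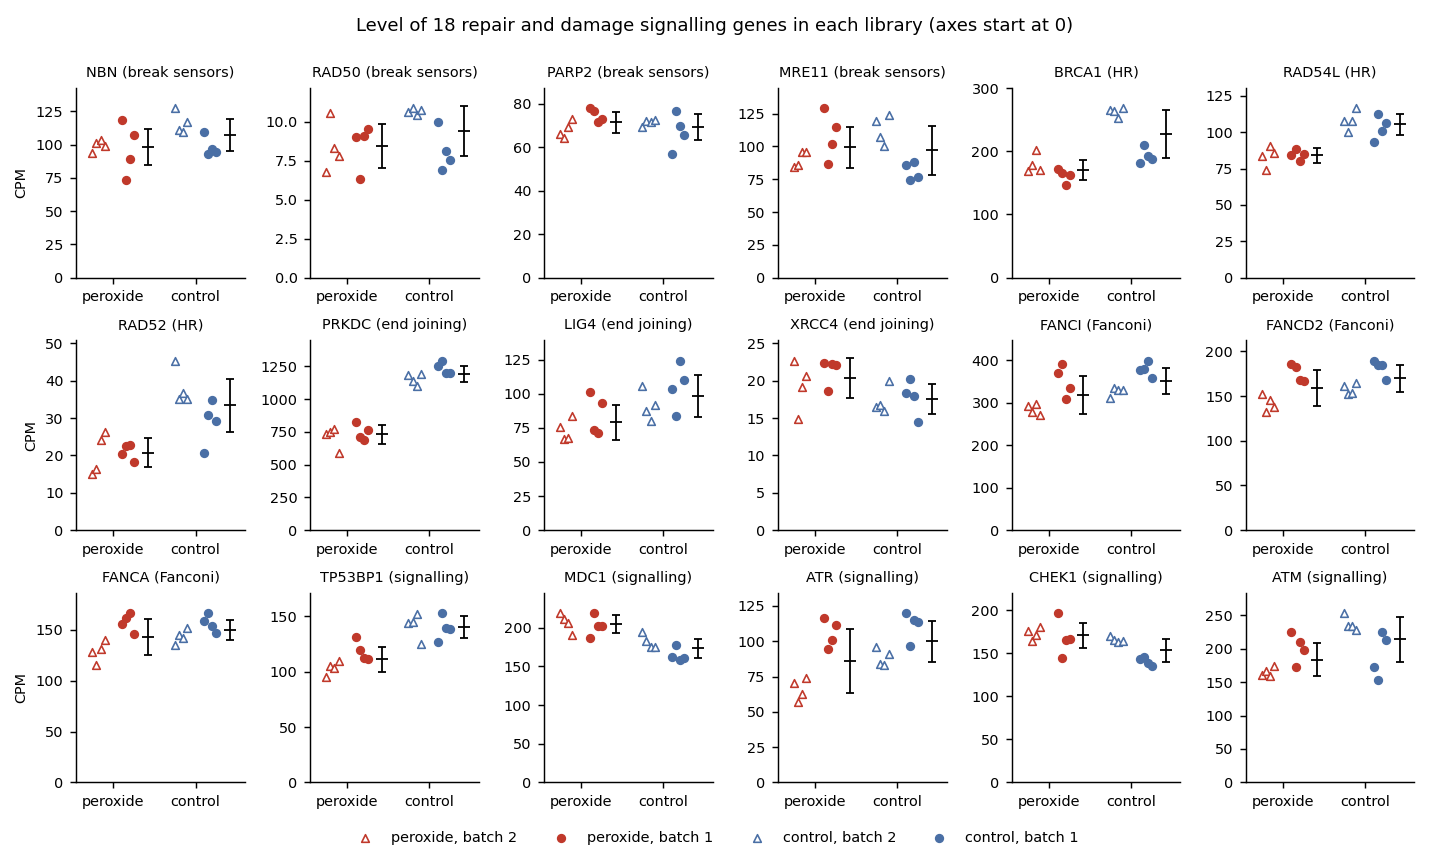
CPM of 18 genes in each of the 8 peroxide (left) and 8 control (right) libraries, with batch 2 as open triangles and batch 1 as filled circles and the mean ± SD as a bar beside each group. PRKDC and RAD54L do not overlap between the groups, while MRE11 and ATM are separated in batch 2 alone (peroxide below control) and overlap over all libraries.

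The differences from control were more negative in batch 2 than in batch 1. This was so for 28 of the 32 genes, or 87.5%, against 51.9% of all genes tested. Among lists counted further on, the share was 77.1% for other homologous recombination and 55.0% for other end joining genes. It was 52.4% for other Fanconi, 54.5% for other signalling, 25% for S phase and 34.8% for G2 and mitosis genes. The median log2 fold change of the set was -0.23 in batch 2 and -0.04 in batch 1, while over all genes it was -0.01 in each. By class, the medians in batch 2 and batch 1 were -0.27 and 0.10 for break sensors, -0.41 and -0.05 for homologous recombination, -0.17 and -0.03 for end joining, -0.16 and -0.05 for Fanconi genes, and -0.22 and -0.00 for signalling. Fitted on its own, batch 2 had 17 of the genes lower (53.1%, against 19.1% of all genes tested there) and 2 higher (6.25%, against 19.4%). Batch 1 on its own had 4 lower (12.5%, against 17.2% of all genes tested there) and 3 higher (9.38%, against 20.4%). BRCA1, RAD52, RAD54L and PRKDC were called lower in both batches alone, and MDC1 was called higher in both. The calls differed somewhat in the fit of all libraries with the interaction. There LIG4 and TP53BP1 were also called lower in batch 1 (edgeR's quasi-likelihood test, adjusted p = 0.0470 and 0.0268). In batch 2 of that fit NBN, LIG4 and XRCC6 were not called (edgeR adjusted p = 0.103, 0.0572 and 0.0870).

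The difference between the batches passed its own test for 2 of the 32 genes, MRE11 and ATM (edgeR's quasi-likelihood test of the interaction, adjusted over all genes), or 6.25% of the set, against 4.88% of all genes. MRE11 in batch 2 ran from 84.0 to 95.4 CPM in peroxide libraries and from 100.4 to 124 CPM in controls. In batch 1 it ran from 86.7 to 129 CPM in peroxide libraries and from 74.1 to 87.7 CPM in controls. The groups were thus separated with peroxide lower in batch 2, and in batch 1 all but 1 peroxide library lay above the controls. The log2 fold change was -0.32 in batch 2 and 0.41 in batch 1 (interaction -0.73 ± 0.15, SE; edgeR adjusted p = 0.0073). ATM in batch 2 ran from 159 to 174 CPM in peroxide libraries and from 227 to 253 CPM in controls, with no overlap. In batch 1 it ran from 173 to 224 CPM in peroxide libraries and from 153 to 225 CPM in controls, with nearly the same range. It had a log2 fold change of -0.52 in batch 2 and 0.08 in batch 1 (interaction -0.60 ± 0.14, SE; edgeR adjusted p = 0.0217). The interaction of ATM was not called without control replicate 1 (-0.52, edgeR adjusted p = 0.0594).

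**Figure D4:**
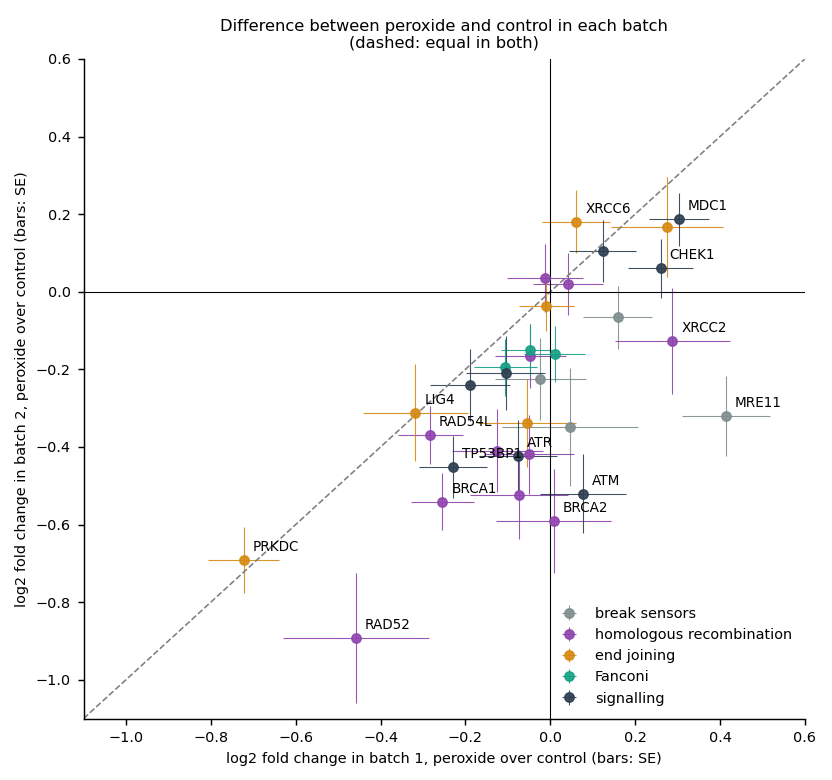
Log2 fold change (peroxide over control) of each of the 32 genes in batch 2 (y axis) and batch 1 (x axis), with SE bars and colours for the classes. Points below the dashed line (28 of 32) were more negative in batch 2; PRKDC lies near the line, MRE11 (-0.32 and 0.41) and ATM (-0.52 and 0.08) are the 2 genes with a called interaction.

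Untreated cells of the batches also differed in these genes. Between batch 2 and batch 1 controls, 8 of 32 genes were higher and 7 lower in batch 2, or 46.9% of the set, against 42.6% of all genes tested (edgeR's quasi-likelihood test, Benjamini-Hochberg adjusted). These are the same control libraries that enter the interaction and the peroxide comparison, so the contrasts are not independent. Higher in batch 2 controls were MRE11, BRCA1, BRCA2, BARD1, PALB2, XRCC3, ATM and CHEK1, and lower were XRCC5, XRCC6, FANCD2, FANCI, ATR, CHEK2 and RNF168. BRCA1 ran from 253 to 268 CPM in batch 2 controls and from 181 to 211 CPM in batch 1 controls. In peroxide libraries it ran from 169 to 202 CPM in batch 2 and from 146 to 172 CPM in batch 1. XRCC6 ran from 477 to 520.2 CPM in batch 2 controls and from 645 to 853 CPM in batch 1 controls. With total counts as scaling, the calls in the set were 18 higher and 4 lower, and the median of all genes in this contrast was 0.14 in place of 0.01. XRCC5, XRCC6, CHEK2 and RNF168 were lower under both scalings, whereas FANCD2, FANCI and ATR were called lower with TMM scaling alone of the 2.

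Other genes of the same pathways were counted from lists drawn up from general knowledge. Of 35 other homologous recombination genes tested, 9 fell (25.7%, against 24.3% of all genes) and 5 rose (14.3%, against 24.1%), with a median log2 fold change of -0.09. RAD51D, which acts with XRCC2, fell by 0.39 and TOP3A, the topoisomerase partner of BLM, fell by 0.36 on the log2 scale. Of 20 other end joining genes, 8 fell (40.0%) and 3 rose (15.0%), with a median of -0.12. CYREN, a regulator of end joining, fell by 0.49 and LIG3, a ligase of the backup route, fell by 0.33. Of 21 other Fanconi genes, 5 fell (23.8%) and 3 rose (14.3%), with a median of -0.01, and FANCF and FAAP100, both of the ligase complex, fell by 0.62 and 0.45. Of 33 other signalling genes, 12 fell (36.4%) and 6 rose (18.2%), with a median of -0.07. CLSPN, the adaptor that presents CHEK1 to ATR, fell to 104 ± 10.8 CPM in peroxide libraries, against 144 ± 18.3 CPM in controls (SD, n = 8 each; log2 fold change -0.47). H2AX, the histone variant bound by MDC1, was at 285 ± 49.98 CPM in peroxide libraries and 152 ± 17.9 CPM in controls, a log2 fold change of 0.90 ± 0.09 (SE; edgeR's quasi-likelihood test, adjusted p = 7.5e-08). The shares called lower in the other homologous recombination and other Fanconi lists were thus near that of all genes.

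**Figure D5:**
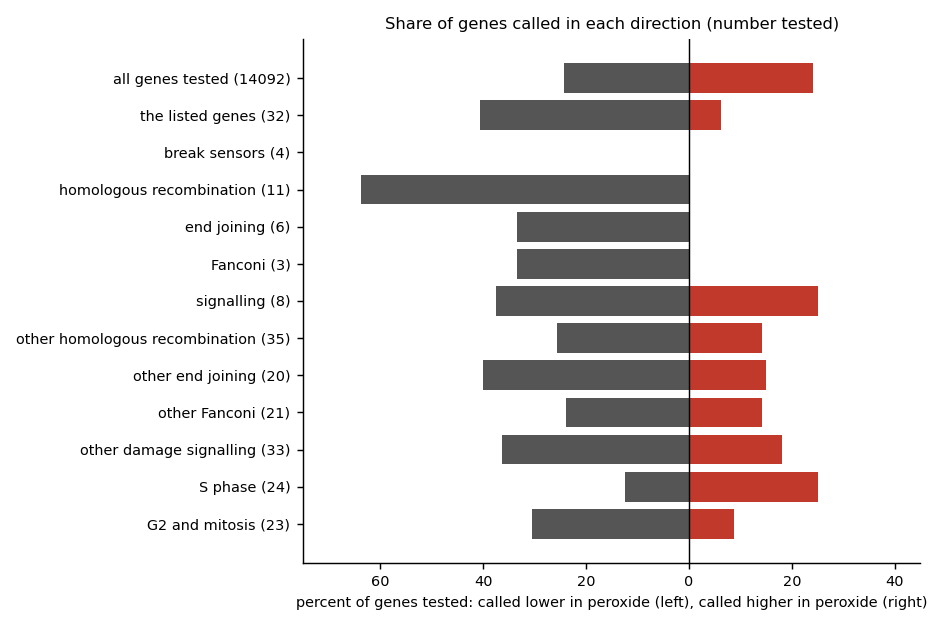
Percent of genes tested that were called lower (left, grey) and higher (right, red) in peroxide libraries, for all genes, the 32 genes, their classes, other genes of the same pathways and cell cycle lists, with the number tested in brackets. Of the 11 homologous recombination genes of the set 63.6% were lower and 0% higher, against 24.3% lower and 24.1% higher of all genes. Of the 35 other homologous recombination genes 25.7% were lower and 14.3% higher.

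Many repair genes vary over the cell cycle, so cycle genes were counted too, and the share called was below that of all genes tested (48.3%) in both lists. Of 24 S phase genes, 6 rose (25%, against 24.1% of all genes) and 3 fell (12.5%, against 24.3%), with a median log2 fold change of 0.06, and their summed level was 5840 to 6543 CPM in peroxide libraries and 5386 to 6606 CPM in controls. PCNA, the replication clamp, rose by 0.60 and CCNE1, the cyclin of S phase entry, by 1.07 on the log2 scale. Of 23 G2 and mitosis genes, 7 fell (30.4%) and 2 rose (8.70%), with a median of -0.01, and their summed level was 4232 to 6123 CPM in peroxide libraries and 4691 to 6620 CPM in controls. CENPF, a kinetochore protein, fell by 0.51 and CCNA2, the cyclin of S and G2, by 0.33. In batch 2 and batch 1 the medians were 0.05 and -0.02 for S phase and -0.03 and -0.16 for G2 and mitosis genes. The interaction was called in 3 of the 24 and 5 of the 23 genes, against 4.88% of all genes. Between batch 2 and batch 1 controls, 5 S phase genes were higher and 10 lower in batch 2. Of G2 and mitosis genes 1 was higher and 17 lower, where 42.6% of all genes were called in either direction. The summed level of the 33 repair and signalling genes was 4669 to 5931 CPM in peroxide libraries and 5525 to 6286 CPM in controls. The part of the cell cycle in the results was not tested.

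Repair genes are long, and longer genes had more negative differences across the transcriptome. The median summed exon length was 6.44 kb for the 32 genes and 5.17 kb for 11071 tested genes with a mean of at least 5 CPM. Spearman's rho between exon length and log2 fold change was -0.29 across the 32 genes and -0.20 across these 11071 genes. Both are descriptions across genes of the same libraries, and genes are not independent replicates. When the genes were cut by exon length into 4 groups of equal size, the 12 repair and signalling genes in the longest group (7.62 kb or more) had a median log2 fold change of -0.19, against -0.12 for all genes of that group. Of all genes of that group 38.9% were called lower and 14.8% higher. In the next longest group the median was -0.14 for 10 repair and signalling genes and -0.05 for all genes, and in the group below it was -0.11 for 7 and -0.01 for all. In the shortest group the order was the other way, with 0.12 for 3 repair and signalling genes and 0.05 for all. The part of length in the results was not tested.

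Some values rest on genes whose exons overlap another gene of either strand, and the labels do not give the strand setting of the counting. For RAD54L, 25.1% of exon bases overlap LRRC41 on the opposite strand, which had a log2 fold change of 0.14 (edgeR's quasi-likelihood test, adjusted p = 0.0839), opposite in sign to that of RAD54L. For XRCC3, 76.7% overlap KLC1 (0.10, edgeR adjusted p = 0.200), and for FANCA, 23.6% overlap ZNF276 (0.13, edgeR adjusted p = 0.206). For ATR, 16.4% overlap the pseudogene AC109992.1. Without the strand, reads of such pairs cannot be told apart.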

How the data were processed

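Each deposited table holds 1 library's raw read counts by gene, made by the authors with STAR 2.7.1a and HTSeq 0.6.1 on hg19, per the submitters' processing notes. The versions of the gene IDs are of a later annotation, so no coordinates of the files are given. HTSeq was run with a mode and strand setting not given in the sources used here. Rows that name no gene, 5 a library, held 43.5% to 57.6% of the counted reads, mostly reads not aligned uniquely, and stayed out of library sizes and tests. Their share was 48.3% to 56.5% in peroxide libraries. In controls it was 57.6% in replicate 1 and 43.5% to 46.8% in the others. The part of this share in the results was not tested. Symbols were found for 60357 IDs (99.5%). Exon lengths and overlaps came from GENCODE release 29 and promoters from RefSeq (GRCh38.p14).

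Genes were kept with filterByExpr on group in edgeR 4.0.16 (R 4.3.3), which left 14092 genes with 99.6% of gene reads. TMM-scaled counts entered edgeR's quasi-likelihood test, whose model held batch and group, and in a second fit with their interaction, which also gave the batch contrast in controls and the difference from control in each batch. Benjamini-Hochberg adjustment ran over all genes tested, and genes were called under 0.05. SE is the absolute log2 fold change over the root of the F statistic. Percent of control is the fitted fold change. The scripts were tested on simulated counts with known changes, the same dispersion for all genes and no other difference between batches. That checks the code and does not give error rates for these libraries. The genes and lists were chosen with earlier results of these data known, so no list was tested. Values by library are given for up to 3 genes per class with the smallest p, for genes called against most called genes of their class and for genes with a called interaction. Of each other pathway, cell cycle and T cell list up to 2 genes with a mean of at least 5 CPM are named, again by smallest p. In the other marker lists, genes with 0 reads and the myeloid genes that passed the filter are named, and no B cell marker is named. For the batches, XRCC6 was named after its values were seen. Alternatives were other scalings, DESeq2 1.42.0, limma-voom (limma 3.58.1), no filter, no batch term, a replicate block, single batches, and leaving out libraries. Within a group, every pair of libraries differed by more than sampling noise (chi-square per degree of freedom 2.95 to 49.9 over 56 pairs).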

Additional observations from a re-analysis of the deposited data

Results flagged for a closer look

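For 2 genes the difference between peroxide and control itself differed between the batches by the test of the interaction. The log2 fold change of MRE11 was lower in batch 2 than in batch 1 by a difference of -0.73 (edgeR's quasi-likelihood test, adjusted p = 0.0073), and that of ATM by a difference of -0.60 (edgeR adjusted p = 0.0217). Both genes were also higher in batch 2 than in batch 1 controls, by 0.47 and 0.31 on the log2 scale, and these controls enter both contrasts. The labels do not say what sets the batches apart, and its part was not tested. No library stood apart from the other libraries of its group, with both batches pooled, for any of the genes checked. Such pooling can hide a library that departs from the others of its own batch.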

How the results depend on the processing

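Of the 15 calls in the set, those of BRCA1, RAD52, RAD54L, PRKDC and MDC1 were made in the same direction under all 26 alternatives. DCLRE1C, ATM and RNF168, not called over all libraries, were called lower under 9, 7 and 7 alternatives, and XRCC4 and XRCC6 were called higher under 5 and 2. NBN and RBBP8 were called lower under 2 each, FANCA and FANCD2 under 1 each, and MRE11 in each batch alone, in opposite directions. The count of genes called higher (2) became 1 with total counts, no filter, no batch term, the replicate block or without control replicate 1 and peroxide replicate 5, the libraries with the largest share of reads not aligned to a single place. It ranged from 1 to 4 over the 16 fits that each left out 1 library, with 4 without control replicate 2 and 1 without control replicate 1, 3 or 4 or peroxide replicate 1, 3 or 4. The count called lower (13) became 4 in batch 1 alone and 17 in batch 2 alone, each with 8 libraries. It became 19 with total counts and ranged from 11 to 18 with 1 library left out. Over all genes, 5150 were higher without the filter, which tested 38177 genes. The interaction count (2) became 4 with the replicate block and 1 without those 2 libraries, and ranged from 1, without control replicate 1, to 3. The sign changed under at least 1 alternative in 9 genes. Of these, BRCA2 was the 1 called over all libraries and was 0.0066 in batch 1 alone, and MRE11 was called with the other sign, at -0.32, in batch 2 alone. The other 7 were not called over all libraries nor where the sign changed, and included XRCC2 at -0.12 and PARP2 at -0.06 in batch 2 alone and ATM at 0.07 and RAD50 at 0.04 in batch 1 alone. Without the batch term the calls of BRCA2, FANCI, ATR and CHEK1 were lost (edgeR's quasi-likelihood test, adjusted p = 0.0762, 0.203, 0.249 and 0.101), without those 2 libraries those of BRCA2, PALB2 and CHEK1 (edgeR adjusted p = 0.0776, 0.0579 and 0.0654) and the interaction of ATM (edgeR adjusted p = 0.0967), and without the filter that of CHEK1 (edgeR adjusted p = 0.288). DESeq2 called 3 genes of the set higher and 13 lower. Whether the replicate numbers pair the libraries was not settled. Of 8 same-numbered pairs, 3 had a correlation of deviations over 0.1 (from -0.22 to 0.31), and 3 libraries correlated best with their own number. With 4 libraries per batch and group, this check cannot exclude a pairing. The replicate block called 1 gene higher and 14 lower, with CHEK1 no longer called (edgeR adjusted p = 0.0524). The cause of these moves was not tested. NHEJ1 gave no value, with at most 11 reads in a library.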
